A study of Mus musculus with 3 samples.

Results

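The SoxE genes Sox8, Sox9 and Sox10 and the SoxC genes Sox4, Sox11 and Sox12 encode transcription factors with an HMG box, the DNA-binding domain shared by all Sox proteins. They were found on the array by symbol: a probe set counted when the platform annotation gave it 1 gene symbol and that symbol was one of these names. All 6 genes were present, each with 1 probe set, out of 19938 genes and 35557 probe sets in all, and 0 probe sets paired a member with another gene.

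The signal came from 3 arrays of 1 group, and no control group was part of the design. Each array held RNA of green fluorescent cells sorted from 1 ureteric bud of a CD-1 mouse embryo at 10.5 days post coitum (Theiler stage 18), which the labels name ureteric tip. All embryos carried the transgene Tg(Hoxb7-EGFP)33Cos, whose green fluorescent protein is under Hoxb7 regulatory sequence and marks the nephric duct with everything that grows from it, so the sort does not separate the tip from the rest of the bud. The labels do not say whether the buds came from different embryos, so any spread behind a p-value is that between these samples, which may be technical.

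The ureteric bud branches under the control of GDNF from the surrounding mesenchyme, which acts through the receptor RET on the bud tips. In the mouse, Sox9 and Sox8 act redundantly in the bud, where their joint loss impairs branching and the response to RET signalling. Sox10 is best known from the neural crest and its glial and pigment cell descendants. The SoxC genes are single-exon genes active in many embryonic progenitors, above all in neurons and mesenchyme, and loss of Sox11 in the mouse causes malformed and duplicated kidneys.

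The identity of the cells was checked first. A gene counted as above background when its signal exceeded the 95th percentile of olfactory receptor probe sets, genes not taken to be used by the bud (limma, adjusted p under 0.05). Epithelial markers were above background in 8 of 8 measured genes and genes of the nephric duct and bud in 9 of 9, while metanephric mesenchyme gave 2 of 9, beside 53% of all genes. Endothelial markers were above background in 8 of 10. With the background set lower, at the 90th percentile of the same olfactory receptor probe sets in place of the 95th, mesenchyme gave 5 of 9 and endothelium 10 of 10, beside 63.7% of all genes. At the 99th percentile they gave 0 and 2, beside 35.3% of all genes. Against the level of beta-defensins and keratin-associated proteins, the highest one used, epithelium kept a count of 8, duct and bud had 4, and mesenchyme and endothelium had 0. The share of all genes was then 21.1%. A bulk signal of this kind cannot tell fewer cells of a type from less RNA per cell.

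Promoter sequence was at hand for 4 of the 6 members, Sox8 and the SoxC genes, and is shown because it is a feature of the members that the array did not measure. Each sequence is the 250 bases before the annotated start, read 5′ to 3′ on the gene's own strand, from RefSeq on GRCm38.p6. Capitals mark CCAAT and GGGCGG on either strand, the letters bound by the factors NF-Y and SP1.
Sox8: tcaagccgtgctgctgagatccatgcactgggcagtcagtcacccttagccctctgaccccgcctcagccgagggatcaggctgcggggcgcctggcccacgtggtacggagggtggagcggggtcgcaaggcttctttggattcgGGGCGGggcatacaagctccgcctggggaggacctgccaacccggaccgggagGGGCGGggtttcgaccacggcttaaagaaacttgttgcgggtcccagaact
Sox4: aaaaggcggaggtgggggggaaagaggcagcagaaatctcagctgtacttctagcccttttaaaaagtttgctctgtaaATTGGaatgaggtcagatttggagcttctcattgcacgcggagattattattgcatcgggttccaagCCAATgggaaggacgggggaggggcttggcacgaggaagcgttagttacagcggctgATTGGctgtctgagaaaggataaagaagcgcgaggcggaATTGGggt
Sox11: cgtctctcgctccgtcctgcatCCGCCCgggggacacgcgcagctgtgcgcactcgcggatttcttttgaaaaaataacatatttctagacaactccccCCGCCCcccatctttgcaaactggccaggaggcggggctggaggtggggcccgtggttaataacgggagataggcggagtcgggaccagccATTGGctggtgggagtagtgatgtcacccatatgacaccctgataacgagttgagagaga
Sox12: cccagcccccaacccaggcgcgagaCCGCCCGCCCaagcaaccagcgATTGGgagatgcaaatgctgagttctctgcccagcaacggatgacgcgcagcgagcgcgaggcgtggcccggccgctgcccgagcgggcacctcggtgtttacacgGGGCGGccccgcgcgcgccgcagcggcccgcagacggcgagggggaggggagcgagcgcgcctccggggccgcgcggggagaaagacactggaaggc

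These windows lie on the minus strand at chr17:25570687-25570936 for Sox8, chr13:28953700-28953949 for Sox4, chr12:27342719-27342968 for Sox11 and chr2:152398047-152398296 for Sox12. CCAAT was found in all 3 SoxC windows and in none of the Sox8 window, against 33.8% of all 32851 promoters of this length. Sox4 held it 4 times, beginning 171, 104, 47 and 8 bases before the start, a count of at least 2 being found in 10.1% of promoters. Sox11 held it once, 60 bases before the start, and Sox12 once, 203 bases before it. GGGCGG occurred 2 times in the Sox8 window, 2 times in Sox11, 3 times in Sox12, where 2 of the matches overlap each other, and 0 times in Sox4, against 32.7% of promoters with at least 1. The TATA box letters TATAAA, searched on both strands, were in 12.4% of all promoters and in 0 of these 4 windows. Sox proteins bind short cores such as AACAAT, which was in 9.42% of all promoters on either strand and in 0 of the 4 windows. Another such core, ACAAAG, was in 16.5% of promoters and likewise in 0 of the 4. The number of CpG dinucleotides was 18 in Sox8, 11 in Sox4, 17 in Sox11 and 35 in Sox12, and the median of all promoters was 6. The CpG count of Sox12 was reached by 2.97% of promoters, and those of Sox8, Sox11 and Sox4 by 21.7%, 23.5% and 35.6%. The GC content of the Sox12 window was 74.4%, beside 65.6% in Sox8, 50.8% in Sox4, 58.0% in Sox11 and a median of 52.4%. Letters in a window describe the sequence and do not show a bound site.

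All 6 members had a signal above background. Background was set on each array from 1035 probe sets of olfactory receptors, the genes of smell, as the 95th percentile of their signal, which was 5.40, 5.45 and 5.41 log2 on arrays 1, 2 and 3. Each gene's signal minus that level was tested with limma over all genes, one-sided, with Benjamini-Hochberg adjustment and a threshold of 0.05. By this rule 10567 of 19938 genes (53%) were above background, so a call is common on this array. The median signal minus background was 0.94 log2 in SoxE and 1.28 log2 in SoxC, beside 0.22 log2 over all genes. A probe set's distance from background also depends on its own response, so the members are not ranked by it.

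**Figure D1:**
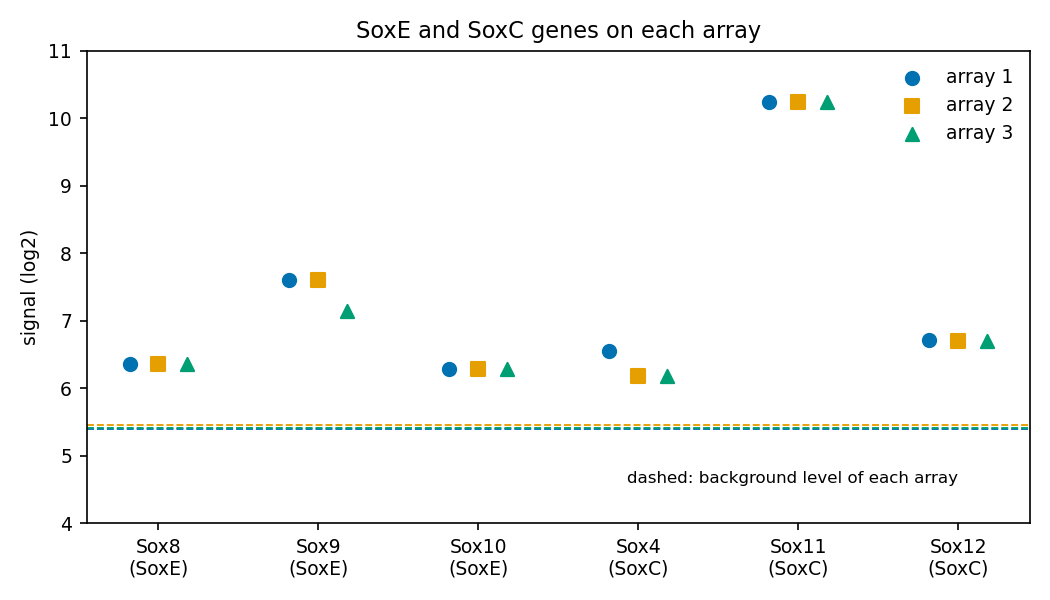
Signal (log2, vertical axis) of the 6 members on array 1 (circles), array 2 (squares) and array 3 (triangles), with the background level of each array as a dashed line. Every point lies above the dashed lines, Sox9 is lower on array 3 than on the others, and Sox4 is higher on array 1.

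Sox9, a factor of the branching tips and of cartilage and Sertoli cells, had a signal of 7.61, 7.61 and 7.14 log2 on arrays 1, 2 and 3. The first 2 values are identical, and array 3 was lower by 0.47 log2. The mean of 7.45 ± 0.27 log2 (SD, n = 3) lay 2.03 ± 0.11 log2 (SE) above background (limma, adjusted p = 0.000129). On each array 1 of the 1035 olfactory receptor probe sets had a signal as high.

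Sox8, its close relative, stood at 6.35 log2 on all 3 arrays, a single value repeated without difference. The mean was 0.94 ± 0.02 log2 (SE) above background (limma, adjusted p = 1.18e-05). Of the olfactory receptor probe sets, 6, 7 and 8 reached it on arrays 1, 2 and 3. Sox10, the neural crest member of SoxE, likewise had the same value of 6.29 log2 on all 3 arrays. It lay 0.87 ± 0.02 log2 (SE) above background (limma, adjusted p = 1.45e-05), with 7, 8 and 9 olfactory receptor probe sets as high. Where the value is identical on all arrays, the error comes from the 3 background levels and the limma prior and measures no spread between buds.

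Sox11, needed for normal kidney induction in the mouse, had a signal of 10.24 log2 on each array, with values that differed by 0.0048 log2 at most. It lay 4.82 ± 0.02 log2 (SE) above background (limma, adjusted p = 6.59e-07), and none of the 1035 olfactory receptor probe sets reached it on any array. Sox12, a SoxC factor that acts alongside Sox4 and Sox11, had 6.71, 6.70 and 6.70 log2, arrays 2 and 3 being identical. Its mean of 6.70 ± 0.01 log2 (SD, n = 3) lay 1.28 ± 0.02 log2 (SE) above background (limma, adjusted p = 5.87e-06). The olfactory receptor probe sets as high numbered 2, 3 and 4 on arrays 1, 2 and 3. The SE of Sox11 and Sox12, 0.0226 and 0.0245 log2, was close to the 0.0232 log2 of Sox8 and Sox10. It therefore holds little spread between buds. Sox4, a SoxC factor of many progenitor cells, had 6.55 log2 on array 1 and 6.19 log2 on arrays 2 and 3, again an identical pair. Array 1 was thus the high one, by 0.36 log2. The mean of 6.31 ± 0.21 log2 (SD, n = 3) lay 0.89 ± 0.10 log2 (SE) above background (limma, adjusted p = 0.00132), with 2, 9 and 10 olfactory receptor probe sets as high.

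The calls of Sox9 and Sox11 held under all 5 background levels tried, and those of the other members did not. All 6 members were above the 2 lower levels, the 90th percentile of olfactory receptors and the 95th percentile of 175 vomeronasal receptor probe sets, as were 63.7% and 65% of all genes. At the 99th percentile of olfactory receptors, where 35.3% of all genes were above background, Sox4 lay 0.24 log2 above the level and lost its call (limma, adjusted p = 0.0713), while Sox8 and Sox10 kept theirs at 0.29 and 0.23 log2 (limma, adjusted p of 0.00109 and 0.00343). Sox8 and Sox10 have identical values on all arrays, so their error holds no spread between buds. Their calls are therefore not firmer than that of Sox4. With background set instead by the 95th percentile of 84 probe sets, those of beta-defensins and keratin-associated proteins, 21.1% of all genes and 2 members remained above it. These were Sox11, by 3.37 log2 (limma, adjusted p = 9.21e-08), and Sox9, by 0.59 log2 (limma, adjusted p = 0.00603). Sox12, Sox8, Sox4 and Sox10 were then below the level, at −0.16, −0.51, −0.56 and −0.58 log2 (limma, adjusted p = 1 for each). When genes identical on all arrays were left out, 63.1% of the 9627 remaining genes were above the 95th percentile of olfactory receptors, among them Sox9, Sox4, Sox11 and Sox12.

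**Figure D2:**
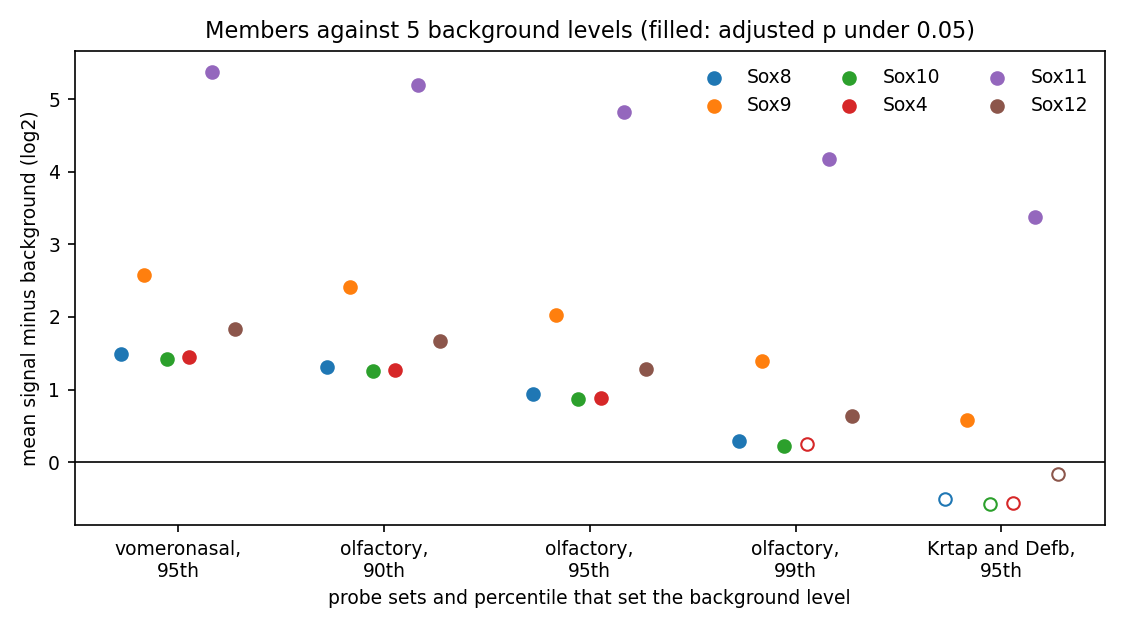
Mean signal minus background (log2, vertical axis) of each member against 5 background levels (horizontal axis, with the probe sets and percentile that set each). Filled points passed limma at an adjusted p under 0.05; Sox9 and Sox11 are filled throughout, Sox4 is open at the 99th percentile, and 4 members are open and below 0 at the right.

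The members repeated values between arrays, as most genes of the table did. Sox8 and Sox10 had 1 value on all arrays, as did 51.7% of all genes, and Sox9, Sox4, Sox11 and Sox12 had 1 identical pair, as did 28.7%. The pair was arrays 1 and 2 for Sox9, arrays 2 and 3 for Sox4 and Sox12, and arrays 1 and 3 for Sox11. No member had 3 distinct values, which 19.6% of all genes had. Among the 6118 genes above background with a measured spread, the median gap from the highest to the lowest array was 0.21 log2. The gap of Sox9, 0.47 log2, was exceeded by 22.2% of these genes and that of Sox4, 0.36 log2, by 31.3%, whereas 96.5% exceeded Sox12 and 98.9% exceeded Sox11. The whole spread of Sox9 rests on array 3 and that of Sox4 on array 1: without these arrays each gap is 0 log2. After quantile normalization the gaps were 0.47 log2 for Sox9 and 0.36 log2 for Sox4, but 0.07 log2 for Sox11 and 0.02 log2 each for Sox8, Sox10 and Sox12, so gaps of this smaller size move with the scaling of the arrays.

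The RET pathway and tip genes, among which Sox9 and Sox8 act, were above background in 9 of 9 measured members, with a median of 1.88 log2 above it, beside 53% of all genes. Against beta-defensins and keratin-associated proteins the count was 4 of 9, beside 21.1% of all genes. Of the 9, 6 had their lowest value on array 3 alone, the array on which Sox9 was low, and 6 had their highest on array 1 alone, the array on which Sox4 was high. Ret, the receptor for GDNF, had 8.69, 8.35 and 8.18 log2 on arrays 1, 2 and 3. Its co-receptor Gfra1 had 8.58, 8.22 and 7.85 log2. The transcription factor genes Etv5 and Etv4, which are induced by RET signalling, had 8.39, 8.08 and 8.08 log2 and 6.76, 6.37 and 5.54 log2. These first 4 genes were all highest on array 1, Sox9 had the same value on arrays 1 and 2, and Etv5 shared with Sox4 the identical pair on arrays 2 and 3. Genes of the nephric duct and bud had their lowest value on array 3 alone in 5 of 9 and their highest on array 1 alone in 6. Epithelial genes were highest on array 1 alone in 4 of 8 and lowest on array 3 alone in 3. The share of all genes highest or lowest on each array was not computed. These counts therefore do not tie Sox9 or Sox4 to the tip genes. Gata3, a factor needed in the duct, had 9.27, 9.06 and 9.05 log2, Pax2 8.58, 8.15 and 7.92, Pax8 6.49, 6.47 and 5.97, and Lhx1 7.76, 6.97 and 6.79.

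Endothelial genes also differed in value between the arrays. Of 10, 7 had their highest value on array 3 alone and 9 their lowest on array 2 alone. For these counts, too, the share of all genes was not computed. The summed linear signal of the 10 was 1211, 575.4 and 1760 on arrays 1, 2 and 3. Cdh5, a cadherin of vessels, had 8.22, 5.90 and 8.07 log2, Pecam1 6.32, 5.86 and 6.62, the receptor Tek 6.69, 5.67 and 7.34, and the sialomucin Emcn 8.37, 6.73 and 9.55. Kdr and Esam, at 6.30 ± 0.74 and 5.78 ± 0.37 log2 (SD, n = 3), did not pass the test (limma, adjusted p of 0.0548 and 0.0969). Array 3 thus combined the lowest Sox9 with the highest summed endothelial signal, while array 2, with the lowest endothelial signal, had the same Sox9 value as array 1. The part of endothelial cells in the Sox9 difference was not tested.

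**Figure D3:**
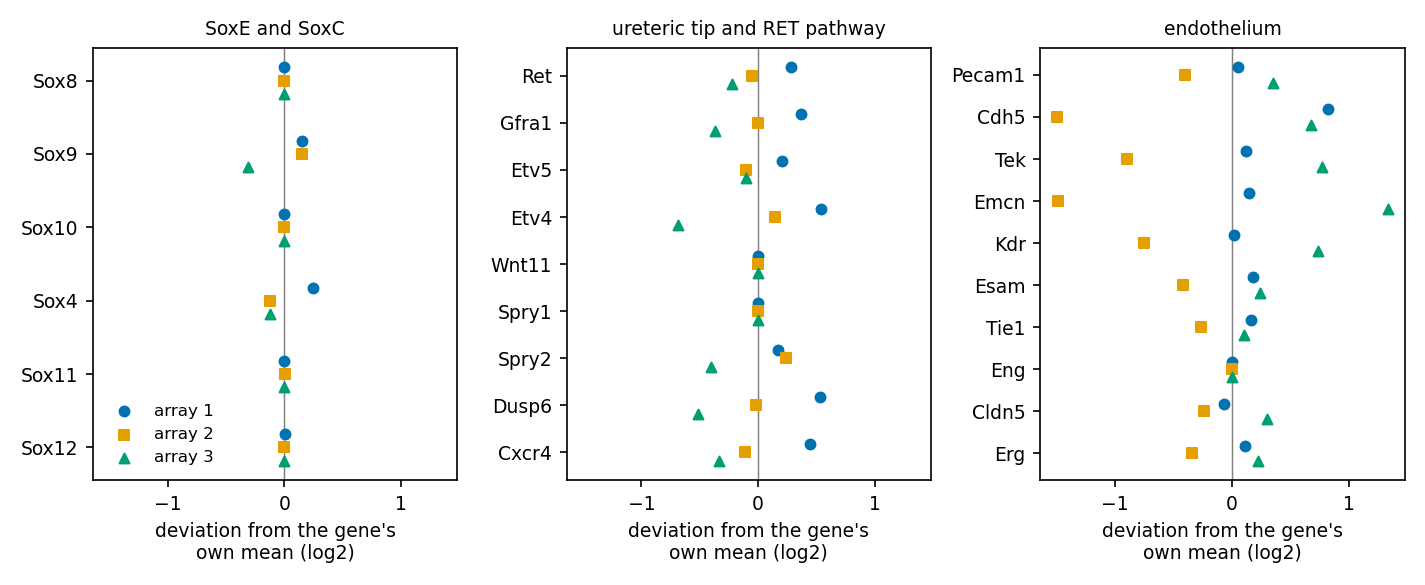
Deviation of each gene from its own mean (log2, horizontal axis) on array 1 (circles), array 2 (squares) and array 3 (triangles), for the members, the ureteric tip and RET pathway genes and the endothelial genes. Sox9 lies to the left on array 3 and Sox4 to the right on array 1, most tip genes run from array 3 on the left to array 1 on the right, and most endothelial genes have array 2 on the left.

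Some other genes had nearly the same profile over the arrays. Likeness was the root mean square difference between the deviations of 2 genes from their own means over 3 arrays, among 6117 other genes above background with a measured spread. The nearest genes to Sox9 were Daam1, with 8.08, 8.08 and 7.62 log2, and Kctd5, with 6.28, 6.28 and 5.81 log2, at 0.00368 and 0.00379 log2. Those nearest to Sox4 were Elk4, with 8.10, 7.73 and 7.73 log2 at 2.83e-05 log2, and Itfg2, with 6.85, 6.48 and 6.48 log2 at 0.00178 log2. Sox11 was nearest to Cir1 and R3hdml, and Sox12 to Trib1 and Anp32a, at up to 9.43e-05 log2. Such likeness is not rare with 3 arrays: 68 genes (1.11%) lay within 0.05 log2 of Sox9 and 269 (4.4%) of Sox4. It is common for Sox11 and Sox12, which hardly vary, with 1836 (30%) and 1830 (29.9%).

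The other Sox genes on the array numbered 14, of which 8 were above background, against 6 of 6 members and 53% of all genes. Their median signal minus background was 0.44 log2, and 4 of them were above the 99th percentile of olfactory receptors, beside 35.3% of all genes. With identical genes left out 2 were called, but 9 of the 14 were then not in the fit. Sox8, Sox10 and Sox4 lay 0.94, 0.87 and 0.89 log2 above background. Sox1, Sox3, Sry and Sox13 were at a like level, with 0.86, 0.93, 1.01 and 1.12 log2. The remaining other Sox genes were lower, at 0.49 log2 (Sox15) or less, and Sox12, Sox9 and Sox11 were higher. The calls of Sox8, Sox10 and Sox4 thus do not set them apart from those 4 genes. The testis-determining gene Sry, of subgroup A, had 6.43, 6.78 and 6.07 log2 (limma, adjusted p = 0.00301), 3 distinct values with array 2 the highest. In subgroup B1, Sox1 and Sox3, genes of neural progenitors, were above background at 6.28 and 6.35 log2, each with 1 value repeated on all arrays. Sox2, the pluripotency and neural progenitor factor of the same subgroup, was at 4.23 ± 0.04 log2 (SD, n = 3) and below the level on every array. In subgroup B2 Sox21 was above background at 5.73 log2 and Sox14 was not, at 5.23 log2, each with 1 value on all arrays. In subgroup D, whose members Sox5 and Sox6 partner with Sox9 in cartilage, Sox5 (5.85 log2) and Sox13 (6.54 log2) were above background and Sox6 (5.36 log2) was not, each identical on all 3 arrays.

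Subgroup F holds the endothelial Sox factors. Sox17 had 5.69, 5.50 and 6.43 log2 on arrays 1, 2 and 3, highest and lowest on the same arrays as most endothelial genes, and it did not pass the test (limma, adjusted p = 0.102). Sox18 was above background at 5.90 log2, identical on all 3 arrays, and Sox7, at 5.24 ± 0.01 log2 (SD, n = 3), was not. Sox15 of subgroup G was above background at 5.91 ± 0.11 log2 (SD, n = 3), and Sox30 of subgroup H was not, at 4.98 log2, identical on all 3 arrays. Against the level of beta-defensins and keratin-associated proteins, 2 of 6 members and 0 of these 14 genes were above background (limma), beside 21.1% of all genes.

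**Figure D4:**
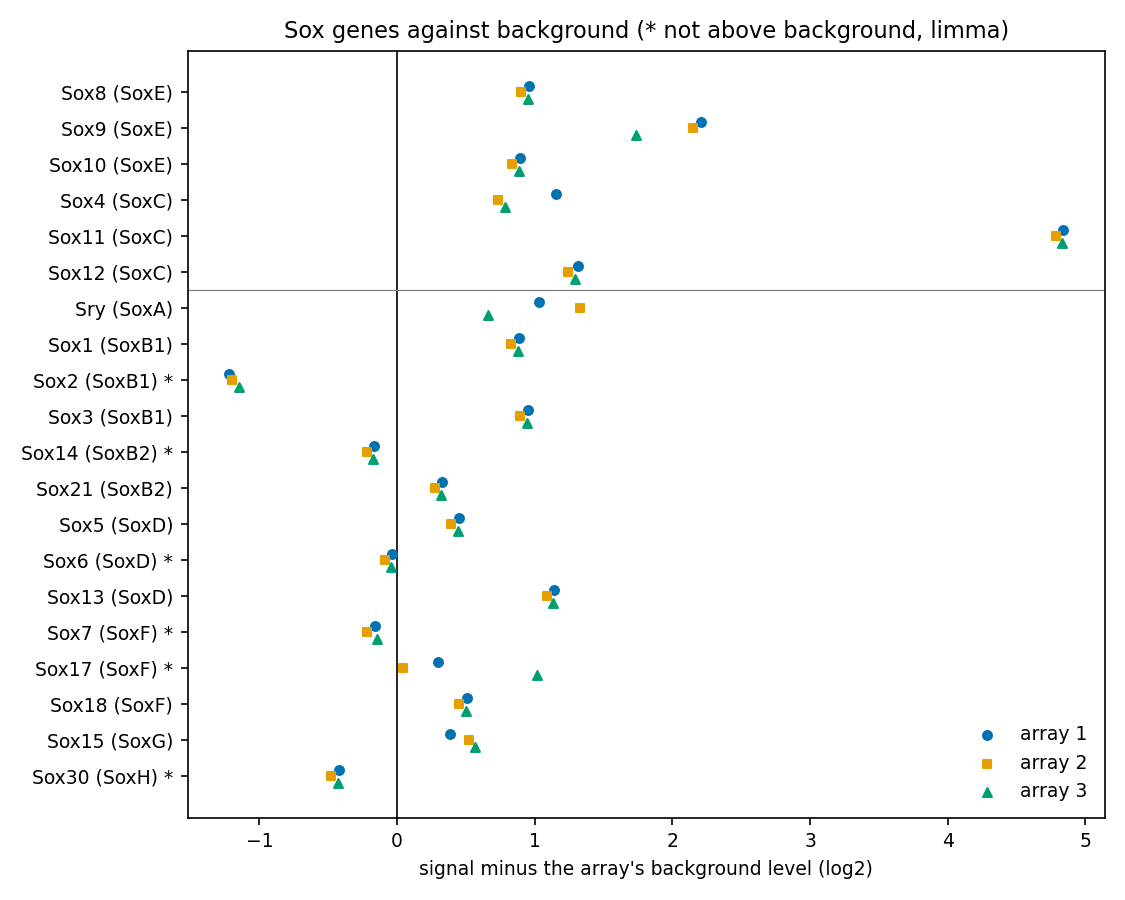
Signal minus the background level of the same array (log2, horizontal axis) for the 6 members, above the grey line, and the 14 other Sox genes by subgroup, on array 1 (circles), array 2 (squares) and array 3 (triangles). An asterisk marks the 6 genes not above background by limma; Sox11 lies near 4.8 log2 and Sox2 near −1.2 log2.

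Genes that SoxE factors serve in cartilage and Sertoli cells were above background in 6 of 14, beside 53% of all genes, with a median signal minus background of −0.04 log2, beside 0.22 log2 over all genes. The count was 10 at the 90th percentile and against vomeronasal receptors, beside 63.7% and 65% of all genes. Against beta-defensins and keratin-associated proteins it was 1, beside 21.1%. It was also 1 with identical genes left out, but 12 of the 14 genes were then not in the fit. The cartilage collagen genes Col2a1 and Col9a1, at 6.49 and 5.53 log2 and identical on all 3 arrays, were above background, as was Col11a2 at 6.44 ± 0.03 log2 (SD, n = 3). Acan, the large proteoglycan of cartilage, was not, at 4.37 ± 0.06 log2. The others above background were Hapln1, Fgf9 and Ptgds, each identical on all 3 arrays. Hapln1, a cartilage link protein gene, had the highest signal of the list, 8.20 log2, which is 2.78 log2 above background. Fgf9 had 6.82 log2 and Ptgds 5.74 log2.

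Markers of the neural crest and glia, the cells in which Sox10 is best known, were above background in 4 of 10 measured genes, beside 53% of all genes, with a median signal minus background of −0.19 log2. The count was 2 against beta-defensins and keratin-associated proteins, beside 21.1% of all genes. The early crest factor Foxd3 had 5.23 log2 on every array and was not above background. Erbb3, a neuregulin receptor, had 6.87, 6.86 and 6.31 log2 and Ngfr, a neurotrophin receptor, 6.05 log2 on all 3 arrays, both above background. Ednrb, an endothelin receptor, had 7.75, 7.52 and 7.84 log2, and was also above it. Tfap2a, the strongest gene of the list, had 8.82, 8.54 and 8.46 log2 and was the remaining gene above background. Pax3, Mitf, S100b, Fabp7 and Snai2 were not above it. The summed linear signal of the list, in which Tfap2a weighs most, was 1013, 895.4 and 882.3 on arrays 1, 2 and 3. This sum does not measure the number of crest or glial cells. Sox10 had a single value on all arrays, and the part of such cells in the Sox10 signal was not tested.

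Neuronal genes, a setting in which SoxC factors are active, were above background in 2 of 10, beside 53% of all genes. These were Gap43, a growth cone gene, at 10.63 ± 0.18 log2 (SD, n = 3), and Isl1, at 5.75 ± 0.04 log2. Tubb3, a neuronal tubulin gene and known SoxC target, had 7.86, 5.93 and 6.09 log2 on arrays 1, 2 and 3 and did not pass the test (limma, adjusted p = 0.0608). Of the 10 neuronal genes, 2 were highest on array 1 alone, 1 on array 2 alone and 2 on array 3 alone. A link between Tubb3 and Sox4 was not tested. Dcx, at 5.60 ± 0.28 log2, and Stmn2 and Elavl3, at 4.97 and 5.17 log2 on every array, did not pass either. The count for the list was 5 at the 90th percentile of olfactory receptors and against vomeronasal receptors, beside 63.7% and 65% of all genes. It was 4 without array 3 and by the rule without a model, beside 48.8% and 54%. At the 99th percentile and against beta-defensins and keratin-associated proteins it was 1, beside 35.3% and 21.1%.

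Mesenchymal genes, the other setting of SoxC, were above background in 2 of 9 for the metanephric mesenchyme and 4 of 10 for stroma and other mesenchyme, beside 53% of all genes. The metanephric count was 5 at the 90th percentile and against vomeronasal receptors, beside 63.7% and 65% of all genes. It was 1 without array 1 or array 3, beside 48.5% and 48.8%. At the 99th percentile it was 0 and the stromal count 2, beside 35.3% of all genes. Against beta-defensins and keratin-associated proteins both were 0, beside 21.1%. With identical genes left out the counts were 0 and 1, but 7 of the 9 metanephric and 9 of the 10 stromal genes were then not in the fit. The called genes missing there were left out, not below the level. In the metanephric mesenchyme list Sall1 and Wt1, at 6.09 and 5.60 log2, were above background, and Six2, Gdnf, Eya1 and Osr1, at 5.20, 5.31, 5.36 and 4.50 log2, were not. The stromal genes above it were Twist1, Prrx1, Col1a1 and Col3a1, and Foxd1, Tcf21, Pdgfra and Pdgfrb were not above background, at 3.42, 4.65, 4.94 and 4.48 log2, each the same on every array. Among the epithelial genes Cdh1 had 7.62 ± 0.16 log2 (SD, n = 3), Epcam 9.27 log2, identical on all 3 arrays, Krt8 10.11 ± 0.58 log2 and Krt18 8.79 ± 0.01 log2.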

How the data were processed

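Sorted ureteric bud cells were measured on 3 Affymetrix arrays, 1 bud each, with RNA amplified in 1 round, per the labels. The authors deposited 1 log2 value per probe set and array; base 2 was inferred from the range of the values. Affymetrix Expression Console made them, per the submitters' processing notes, with version, background correction, normalization and probe summary not given in the sources used here. Column medians were 5.47, 5.50 and 5.48 log2, and the columns were used as deposited, with identity set at a tolerance of 1e-06 log2.

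Of 35557 probe sets, 21789 had 1 gene symbol in the platform annotation, 1621 had several and 12147 had none. Probe sets of 1 gene were averaged, giving 19938 genes. limma 3.58.1 in R 4.3.3 fitted the mean of value minus background (lmFit, eBayes, prior of 1.71 degrees of freedom and SD 0.0498 log2). The fit was tested on simulated data without identical values, so that test does not cover genes with such values. Array number limits the precision. Members and lists were chosen with earlier results of these data known. Of 107 genes in the 10 other lists, 103 had a probe set with 1 symbol. Named genes were the members, every other Sox gene, the first 4 measured genes of each list, all called or not called where these were 3 or fewer, and the 2 nearest profiles of each member with a measured spread; further list genes were named after their values were seen. Alternatives changed the background, the normalization, the treatment of identical values, the choice of probe set, a filter on dim probe sets and the model, and left out each array.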

Additional observations from a re-analysis of the deposited data

How the results depend on the processing

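The count of members above background was 6 of 6 in the analysis as reported and in all alternatives but 3: 5 at the 99th percentile, 4 with identical genes left out, since Sox8 and Sox10 were then not in the fit, and 2 against beta-defensins and keratin-associated proteins. Of all genes in the fit, 35.3%, 63.1% and 21.1% were above background in these 3 settings. In the last, Sox8, Sox10, Sox4 and Sox12 turned to −0.51, −0.58, −0.56 and −0.16 log2. Their signals were the same, and only the background level changed. It was 6.82, 6.91 and 6.87 log2 on arrays 1, 2 and 3, in place of 5.40, 5.45 and 5.41. Why beta-defensins and keratin-associated proteins gave a higher level was not tested. The other Sox genes and lists together had 60 of 103 genes above background, beside 53% of all genes. They had 38 at the 99th percentile and 20 against beta-defensins and keratin-associated proteins, the 2 settings with a higher background level. The share of all genes also fell in these settings, to 35.3% and 21.1%. With identical genes left out the count was 37, where fewer genes were in the fit. The median gap between arrays over the members was 0.0093 log2 and 0.0466 log2 after quantile normalization. With each array left out in turn the member count stayed at 6, the other count ran from 60 to 61, and the median gap ran from 0 to 0.0069 log2. The fits without array 1, without array 3 and with vomeronasal receptors used 1 pooled SD for all genes. Single lists other than SoxE and SoxC moved by over 1.5 times in 28 of 130 list and setting pairs. No paired analysis was possible because there is 1 group. With 3 arrays and many identical values, differences between buds are measured poorly for Sox8, Sox10, Sox11 and Sox12.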

Other observations

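2 transcripts named after Sox genes outside the lists were also on the array, each with 1 probe set, and were looked up after the other values were seen. Sox1ot, a non-coding RNA named for its overlap with Sox1, had 5.58 log2 on all 3 arrays, 0.16 log2 above background (limma, adjusted p = 0.00346). Sox6os, an opposite-strand transcript of Sox6, had 4.75, 4.50 and 5.47 log2 on arrays 1, 2 and 3 and was not above background (limma, adjusted p = 1). Sox6 itself had a single value on all arrays.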
